A study of Mus musculus with 12 samples.

Results

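The clusters described here are stretches of mouse mRNA genes at which 3 RNA-binding proteins were all listed by crosslinking and immunoprecipitation with sequencing (iCLIP). A cluster belonged to the set if it was in the authors' deposited Rbm38 table, if its centre lay in exactly 1 gene body on mm10 and that gene was protein-coding, and if it overlapped at least 1 cluster of each Puf60 table by 1 nt or more on the same strand. This held for 8543 clusters in 2746 genes, out of 39008 Rbm38 clusters in a single protein-coding gene (21.9%), 49260 Rbm38 clusters in all and 124941 clusters in the 3 tables together. Being listed is not the same as being enriched: a table also holds clusters at which CLIP was level with or below its input. The overlap chose the clusters, so their values are described here and not tested.

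Rbm38 and the exon 5-containing and exon 5-lacking isoforms of Puf60 were studied. Each carried a Flag tag and was made from a Flp-in transgene in N2A mouse neuroblastoma cells, induced with 1 µg/ml doxycycline, so the binding seen is that of an induced, tagged protein beside whatever the line makes itself. Cells received 150 mJ/cm2 of ultraviolet light, and each protein had 3 CLIP libraries and 1 size-matched input, lysate RNA cut from the gel at matching sizes with no antibody step. Doxycycline was given for 48 h before CLIP of Puf60 with exon 5, and for 24 h before CLIP of Puf60 without exon 5 or Rbm38 and for all inputs. A difference between the isoforms and a difference in induction time cannot be told apart. The titles number the CLIP replicates BR1 to BR3 without spelling out the abbreviation, and no label names separate cultures. The tables give 1 log2 fold of CLIP over input and 1 adjusted p per cluster and no value per library. Replicate spread and read depth are thus unknown for every value. Of 15 markers of sympathetic neuroblasts and neurons, 9 held a listed cluster in some table (Th, Dbh, Isl1, Mycn, Nefm and Nefl held none), and 4 of 7 markers of other cells did.

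Puf60 is a splicing factor related to the large U2AF subunit, and it binds pyrimidine tracts, the runs of C and U that precede 3′ splice sites inside introns. Rbm38, whose gene is induced by p53, is known for binding 3′ untranslated regions, where it affects mRNA stability, as well as for roles in splicing. In iCLIP, ultraviolet light links protein to RNA at the point of contact, and the tagged protein is then pulled down with its RNA.

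The shared clusters differ widely in what they cover, and small sets show this in sequence. The reference used here holds the sequence of gene starts and of miRNAs, from RefSeq on GRCm38.p6. Shown first are gene starts, as DNA on the transcribed strand, because 138 of the shared clusters covered part of the first 50 transcribed bases from an annotated start of their own gene and 37 covered all of them. A gene can have several such starts: 90 of the 138 lay at the 5′ end of the gene body and 48 inside it. Of those printed, the starts of Ddx17, Kmt2d, Rpl38 and Xpo1 lay 13847, 2872, 762 and 132 nt inside. The first 30 bases are given, with the unbroken run of C and T that begins at base 1 in capitals. The first 5 open with at least 5 pyrimidines. The last 2 were among the 7 fully covered starts enriched for all 3 proteins.
Rpl27a: TCCCTTTTCCCTTTCTgccaccgccatggt
Rack1: CTTTTTCTCCacagggtcgtggtggcagcc
Rpl38: CTTTCCCCgttctcttcggttctcatcgct
Rplp2: CTTTCgccgccggacgccgccgaggtcgca
Kmt2d: TTTTTTTTTTTTTTTTTTTTTTaaaccccc
Xpo1: ggagaagcggctgcagcggccgcggcagga
Ddx17: aggatattttcggaatattctttgtaaaat

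Next are mature miRNAs whose hairpins lay whole or in large part within shared clusters on the same strand, with the seed (bases 2 to 8) in capitals. They are shown because the host clusters took opposite values: the hairpins of miR-3084 lay in clusters far below input for every protein, and those of miR-6935, miR-5125 and miR-3064 in clusters enriched for every protein. The hairpin of miR-5114 lay in a cluster enriched for Rbm38 only.
mmu-miR-3084-3p: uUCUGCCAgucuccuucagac
mmu-miR-3084-5p: gUUGAAGGuuaauuagcagagu
mmu-miR-6935-3p: uGUUCUUUgucuuuccacag
mmu-miR-5125: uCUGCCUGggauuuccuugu
mmu-miR-3064-5p: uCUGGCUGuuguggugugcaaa
mmu-miR-5114: aCUGGAGAcggaagcugcaaga
In all, 12 shared clusters covered part of 12 hairpins, 4 of them whole. Their 18 mature sequences had 18 different seeds, so none could be grouped by seed.

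Most shared clusters were enriched for Rbm38, and fewer for either Puf60 isoform. At a deposited adjusted p under 0.05, 5235 of the 8543 clusters were enriched for Rbm38 (61.3%, 95% Wilson interval 60.2 to 62.3%), where 50.9% of all clusters of that table were. For Puf60 with exon 5 the count was 3565 (41.7%, 40.7 to 42.8%), beside 39.1% of all clusters of its table. For Puf60 without exon 5 it was 3456 (40.5%, 39.4 to 41.5%), beside 36.1%. These intervals cover counting error only, and since neighbouring clusters of a gene are not independent they are too narrow. The members were chosen by being listed in these tables, so nothing is read from the distance to the table-wide shares. With a log2 fold of at least 1 required as well, the counts were 4562, 2942 and 2839, beside 46.1%, 34.9% and 31.6% of the tables. With the deposited p-value adjusted by Benjamini-Hochberg they were 6060, 4040 and 3732, beside 61.6%, 42.9% and 39.1%. In the authors' deposited tables the median log2 fold over the shared clusters was 1.25 for Rbm38, 0.39 for Puf60 with exon 5 and 0.26 for Puf60 without it.

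The Puf60 isoforms had similar folds at shared clusters, whereas Rbm38 and Puf60 did not. Over the 8543 clusters, the deposited log2 folds of the isoforms correlated with Pearson's r = 0.92 and Spearman's rho = 0.86. Those of Rbm38 and Puf60 with exon 5 had r = -0.14 and rho = -0.16, and those of Rbm38 and Puf60 without exon 5 had r = -0.20 and rho = -0.24. Over the 2985 clusters of identical extent in all 3 tables, the values with Rbm38 were nearer 0, with r = -0.046 and rho = -0.058 for Puf60 with exon 5 and r = -0.095 and rho = -0.117 for Puf60 without it. These are descriptions across clusters that share libraries and genes. Of the clusters enriched for Puf60 with exon 5, 83.3% were also enriched for Puf60 without it, and 85.9% the other way round. Of the clusters enriched for Rbm38, 36.9% were enriched for Puf60 with exon 5, against 49.4% of the clusters not enriched for Rbm38.

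**Figure D1:**
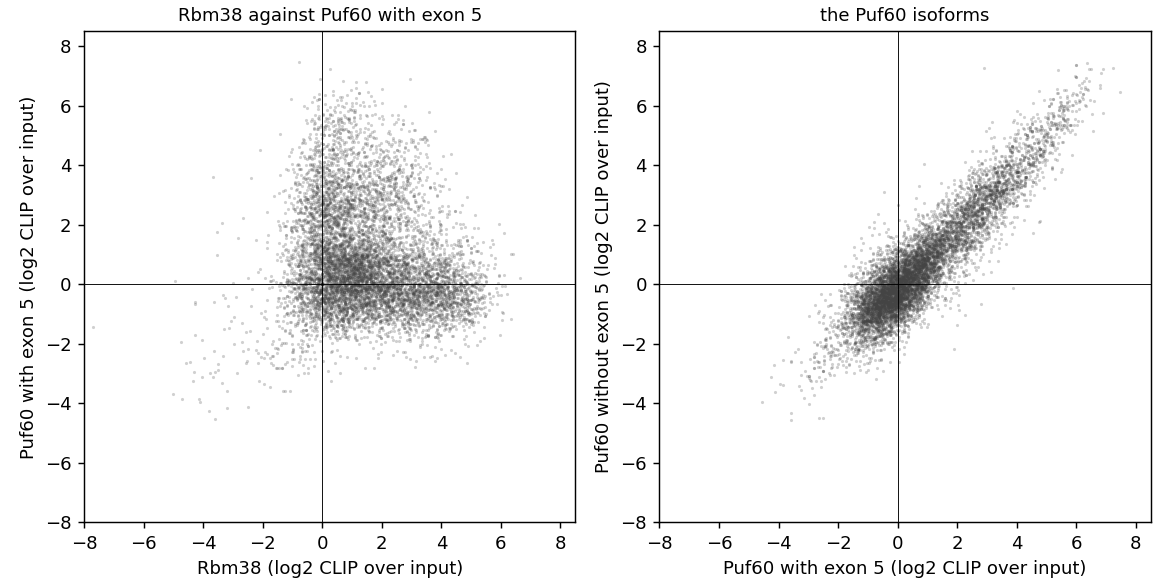
Each point is 1 of the 8543 shared clusters, with log2 CLIP over input from the authors' deposited tables on both axes: Rbm38 against Puf60 with exon 5 on the left, and the Puf60 isoforms against each other on the right. The isoforms lie along a diagonal (r = 0.92), while Rbm38 and Puf60 spread along separate arms (r = -0.14).

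By which proteins were enriched, the shared clusters fell mainly into 4 groups. Rbm38 alone was enriched at 3053 clusters (35.7%) in 1630 genes. All 3 proteins were enriched at 1523 (17.8%) in 826 genes. Both Puf60 isoforms but not Rbm38 were enriched at 1446 (16.9%) in 735 genes, and none of the 3 at 1438 (16.8%). The remaining combinations were smaller, with Rbm38 and Puf60 with exon 5 at 407 clusters, Rbm38 and Puf60 without exon 5 at 252, and a single isoform at 189 (with exon 5) and 235 (without).

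The groups also differ in size of effect. Where Rbm38 alone was enriched, the median log2 fold in the authors' deposited tables was 2.55 for Rbm38, -0.30 for Puf60 with exon 5 and -0.52 for Puf60 without it. Where all 3 were enriched, Rbm38 was at 1.81 and the isoforms at 2.47 and 2.20. Where only the isoforms were enriched, they were at 2.57 and 2.52 and Rbm38 at 0.08. The medians of the isoforms were thus a little lower where Rbm38 was enriched too, and that of Rbm38 was lower where Puf60 was.

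Position in the gene separated the groups, a property that the choice of clusters did not use. The strand of a cluster was read from its start on the 50-nt grid, and 7753 clusters lay in the direction of their gene. Of these, 37.4% had their centre within 2000 nt of the annotated 3′ end of the gene. The share was 58.8% (57.0 to 60.6%) where Rbm38 alone was enriched, 29.9% (27.5 to 32.4%) where all 3 were, 23.8% (21.5 to 26.2%) where none was, and 14.5% (12.7 to 16.5%) where only the Puf60 isoforms were. The median distance to the 3′ end was 1386 nt, 4906 nt, 7104 nt and 8440 nt in that order. The reference gives gene bodies without exons, so clusters were not split into introns, coding exons and untranslated regions.

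Along the gene, Rbm38 and Puf60 enrichment ran in opposite directions for the first 20000 nt. Of the 556 shared clusters within 200 nt of the 3′ end, 91.0% were enriched for Rbm38, 17.6% for Puf60 with exon 5 and 13.5% for Puf60 without it. At 1000 to 2000 nt the shares were 72.9%, 34.6% and 33.8%. At 10000 to 20000 nt they were 40.0%, 59.9% and 60.4%, so the order of the proteins had turned. Beyond 50000 nt, in 781 clusters of long genes, the shares were 50.7%, 38.0% and 36.5%, and Rbm38 was again the most frequent. These clusters lay in 289 genes, and a few crowded genes gave many of them. All 48 of Samd5 lay there, with 24, 7 and 4 enriched for Rbm38 and for Puf60 with and without exon 5. So did all 31 of Ankrd11, with 21, 6 and 2. Other crowded genes had their median distance there. Of these, Pcbp3 (120494 nt) had 67, 49 and 42 of 130, and Map1b (67610 nt) had 58, 9 and 12 of 94. Huwe1 (54817 nt) had 14, 35 and 38 of 57, and Efna5 (247042 nt) had 20, 5 and 4 of 30. Shares without such genes were not computed. The share enriched for all 3 rose less, from 8.81% within 200 nt to 23.4% at 10000 to 20000 nt.

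**Figure D2:**
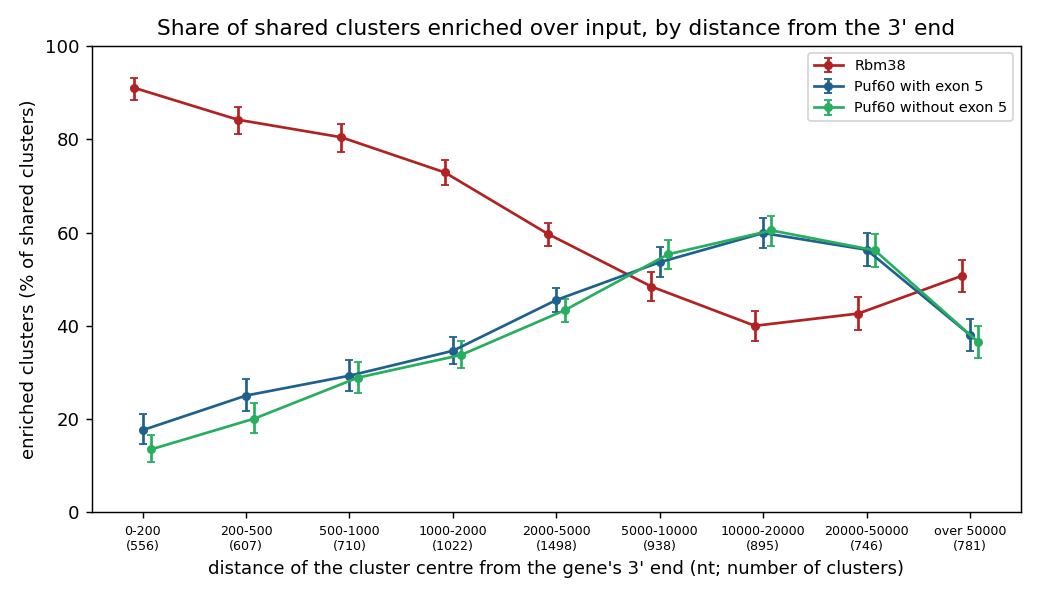
Share of shared clusters enriched over input (percent, deposited adjusted p under 0.05) against distance of the cluster centre from the annotated 3′ end of the gene, for the 7753 clusters in the direction of their gene; bars are 95% Wilson intervals and the number of clusters stands under each bin. Rbm38 falls from 91.0% to 40.0% and then rises to 50.7%, while both Puf60 lines climb to about 60% (59.9% and 60.4%) at 10000 to 20000 nt and fall beyond 50000 nt. In the bin beyond 50000 nt, a few crowded genes gave many of the clusters.

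The same order was seen inside single genes. In 303 genes, at least 1 shared cluster was enriched for Rbm38 alone and at least 1 for both Puf60 isoforms and not Rbm38. The Rbm38 clusters lay nearer the 3′ end by their median in 255 of them (84.2%, 79.6 to 87.8%). All Rbm38 clusters were nearer than every Puf60 cluster in 218 genes (71.9%), and the reverse held in 19 (6.27%). The median distances over these genes were 1170 nt for Rbm38 and 8720 nt for Puf60. Puf60's own gene shows the pattern on a small scale: of its 2 shared clusters, that at chr15:76070236-76070335, 104 nt from the 3′ end, had deposited log2 folds of 4.43 for Rbm38, -0.45 for Puf60 with exon 5 and -0.39 for Puf60 without it. The other, at chr15:76072586-76072635 and 2429 nt away, had -0.25, 4.44 and 2.83. Reads of the Puf60 transgenes and of the native gene cannot be told apart in these tables. The gene Rbm38 held no shared cluster.

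Ptbp2, the neuronal polypyrimidine tract-binding protein that represses exons in young neurons, held 26 shared clusters and had both arrangements in sequence. The 3 clusters within 1370 nt of its 3′ end were enriched for Rbm38 alone, with median log2 folds of 2.80, -0.10 and -0.76 for Rbm38 and for Puf60 with and without exon 5. The other 23, from 6120 nt to 28820 nt, had medians of 1.97, 4.06 and 3.78, and 22 of them were enriched for all 3 proteins. Most lie in a dense stretch between 20820 nt and 28820 nt. Several of them fall on the same wide Puf60 cluster, so the 26 clusters stand for 19 clusters of Puf60 with exon 5 and 14 of Puf60 without it.

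Cpsf6, a subunit of the cleavage factor that acts at polyadenylation sites, held 33 shared clusters, and 27 were enriched for all 3 proteins. Within 12000 nt of its 3′ end, 26 clusters had median log2 folds of 1.98, 2.58 and 1.86. The other 7 were further inside the gene, with 0.64 for Rbm38 and 3.32 and 2.92 for the isoforms. Rbm38 was thus lower in the upstream part, and Puf60 was not. The nuclear poly(A)-binding protein gene Pabpn1 held 4 shared clusters, all within 802 nt of its 3′ end and all enriched for every protein, with deposited log2 folds between 1.92 and 4.67. Fubp1, which encodes a single-stranded nucleic acid-binding protein, held 23, of which 14 were enriched for all 3 and 7 for the isoforms only.

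Cbx5, which encodes the heterochromatin protein HP1α, looked different: 21 of its 26 shared clusters were enriched for Rbm38 alone, with medians of 1.45, -0.70 and -0.83. Map1b, a microtubule-associated protein of growing axons, held 94 shared clusters, and 55 were enriched for Rbm38 alone. The 2 clusters of Map1b within 5000 nt of its 3′ end were enriched for Rbm38 alone, with medians of 1.56, -0.06 and -0.16. At 5000 to 40000 nt, 9 clusters had medians of -0.59 for Rbm38 and 0.83 and 1.10 for the isoforms. Most of the Rbm38 clusters lay further away: 81 of the 94 were at 40000 to 90000 nt, and 54 of those were enriched for Rbm38, with a median of 1.54 against -0.50 and -0.48 for the isoforms. Rbm38-enriched clusters thus stood on both sides of the Puf60-enriched stretch.

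**Figure D3:**
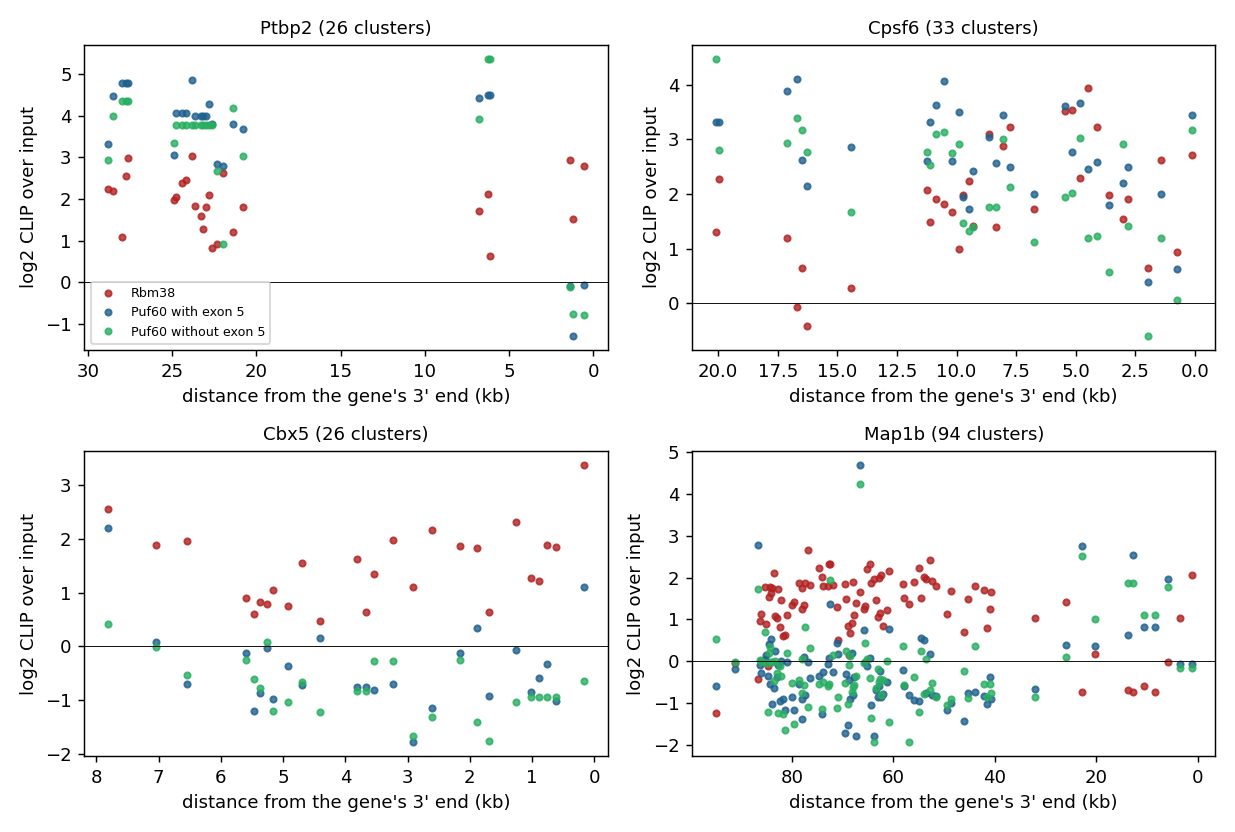
Log2 CLIP over input of the shared clusters of Ptbp2, Cpsf6, Cbx5 and Map1b against distance from the 3′ end of the gene in kb, with the 3′ end on the right; each cluster has 1 point per protein, from the authors' deposited tables. In Ptbp2 the 3 clusters nearest the 3′ end are high for Rbm38 only, in Cpsf6 27 of 33 are enriched for all 3, and in Cbx5 and Map1b Rbm38 lies above Puf60 at most clusters.

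Shared clusters were unevenly spread over genes. Of the 2746 genes, 1390 held a single shared cluster and 167 held at least 10, and the latter had 2870 of the clusters (33.6%). Pcbp3, a member of the poly(C)-binding protein family, held the most, with 130. Of these, 67 were enriched for Rbm38, 49 for Puf60 with exon 5 and 42 for Puf60 without it. The E3 ubiquitin ligase gene Huwe1 held 57, and there the isoforms were ahead: 14 were enriched for Rbm38, 35 for Puf60 with exon 5 and 38 for Puf60 without it. Samd5 (48 clusters) and Ankrd11 (31), a chromatin regulator, leaned to Rbm38, with 21 and 16 clusters enriched for Rbm38 alone. Racgap1, needed for cytokinesis, held 46, with 17 for Rbm38 alone and 15 for the isoforms only. The gene Hnrnpu, whose product binds chromatin and nascent RNA, held 35, with none for Rbm38 alone and 12 for all 3. Gnas (33 clusters), the stimulatory G protein subunit, had 12 for the isoforms only against 3 for Rbm38 alone, and the nuclear export receptor gene Xpo1 (31) had 8 against 3.

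The clusters with the highest folds for all 3 proteins lay mostly far from the 3′ end. Taken 1 per gene and ranked by the lowest of the 3 folds, the leading genes included Mamdc2, Fubp1, Cdk5rap2, Prune2, Pabpn1, Ank1, Trip12, Litaf and Spag17. The Mamdc2 cluster at chr19:23357486-23357635, 54952 nt from the 3′ end, had deposited log2 folds of 3.79, 5.16 and 4.93 for Rbm38, Puf60 with exon 5 and Puf60 without it. The cluster in Cdk5rap2, a centrosome protein gene, was at 3.60, 5.80 and 5.13 and lay 161331 nt from the 3′ end. Among those named, the cluster of Pabpn1 at 302 nt was the nearest to a 3′ end, and that of Litaf lay opposite to its gene.

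Clusters where Rbm38 stood furthest above Puf60 sat mostly at gene ends. Of the 10 leading genes, Mgat4b, Chchd2, Fbln2, Atp5l, Ctsl, Minpp1, Atp5a1, H2az1, Cep290 and Slc7a14, all but Ctsl (2021 nt) and Cep290 (8446 nt) had the cluster within 369 nt of the 3′ end. The cluster of Mgat4b, a Golgi glycosyltransferase gene, at chr11:50234951-50235100, had deposited log2 folds of 5.98 for Rbm38 and -1.69 and -1.73 for the isoforms. The isoform clusters lay within that stretch and shared no base with each other, as was also so in Ctsl and Slc7a14. In Minpp1 and Atp5a1 they were narrower than the Rbm38 cluster. The folds of these genes are thus not all of the same bases. That of Chchd2, a mitochondrial protein gene, was at 6.05, -1.19 and -1.38. The leading clusters of both ATP synthase genes, Atp5l (5.44, -1.45 and -2.17) and Atp5a1 (4.34, -2.21 and -2.66), were well below input for Puf60. Other shared clusters of Atp5a1 reached 1.01 and 1.51 for the isoforms.

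Clusters where the isoforms stood furthest above Rbm38 were in Trpm3, Frmd4a, Ppp1r12a, Fubp1, Mast2, Mfsd4b5, Rnf165, Cdk14, Tspan3 and Nxf3. Widths and positions here are of the Rbm38 clusters. Of these, 9 were 50 nt wide, the smallest size in the tables, and that of Fubp1 spanned chr3:152227351-152227450. The Puf60 clusters that gave the isoform folds had the same extent in Trpm3, Cdk14 and Nxf3. In the other genes both were wider, as in Ppp1r12a, where they spanned chr10:108162201-108162300. The Ppp1r12a cluster, in the gene of a myosin phosphatase subunit, at chr10:108162201-108162250, had deposited log2 folds of 7.47 and 6.48 for Puf60 with and without exon 5 and -0.77 for Rbm38. The Fubp1 cluster had 7.24, 7.28 and 0.26. In Trpm3, a cation channel gene, Rbm38 was far below its input (-3.69), with the isoforms at 3.61 and 3.63. The cluster of Mfsd4b5 lay opposite to its gene.

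Differences between the isoforms were small at most shared clusters. The deposited log2 fold of Puf60 with exon 5 minus that without it had a median of 0.13 and an SD of 0.72 over the clusters, and 83.8% were within 1 of each other. It was above 2 at 64 clusters and below -2 at 30. The largest differences in favour of exon 5, among clusters enriched for exactly 1 isoform, were in Rpl23a (1.90 against -2.18), Racgap1 (3.87 against -0.13), Prcp (2.82 against -0.65), Dkk3 (2.01 against -1.35) and Xpnpep1 (2.28 against -1.04). Those in favour of Puf60 without exon 5 were in Got2 (-0.45 against 3.12), Pcbp3 (0.88 against 4.03), Tle5 (-0.67 against 2.37), Dazap2 (-0.97 against 1.92) and Anp32a (-0.78 against 2.09). The values of a pair need not come from the same bases. In Racgap1, Prcp, Dkk3, Xpnpep1, Tle5 and Anp32a the clusters of the isoforms overlapped the Rbm38 cluster but not each other, so those differences are between neighbouring stretches and are no comparison of the isoforms at a site. The isoform clusters shared no base at 534 of the 8543 members, at 18 of the 64 and at 9 of the 30. In Pcbp3 both isoform clusters had the same extent, and in Rpl23a, Got2 and Dazap2 they overlapped in part. In Rpl23a the cluster of Puf60 without exon 5 also spanned another shared cluster, at chr11:78181336-78181385 over the small RNA gene Snord42a. That shared cluster had the same -2.18 for Puf60 without exon 5, and -3.36 for Puf60 with it. The Rpl23a cluster of Puf60 with exon 5 ended before it, so the values 1.90 and -2.18 are of unlike stretches. Only 2985 of the 8543 shared clusters (34.9%) had the same start and end in all 3 tables.

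Shares in genes of RNA-processing proteins are read beside those over all shared clusters, 61.3% for Rbm38, 41.7% for Puf60 with exon 5 and 40.5% for Puf60 without it. The isoform shares were higher in these lists and the Rbm38 shares mostly near or below; the differences were not tested. SR proteins, the serine- and arginine-rich splicing factors, had 94 shared clusters in 10 of 12 genes, and 68.1% were enriched for Puf60 with exon 5, 63.8% for Puf60 without it and 59.6% for Rbm38, with 33.0% for all 3 beside 17.8% over all shared clusters. In Srsf11, 12 of 14 clusters were enriched for Puf60 with exon 5, 13 for Puf60 without it and 10 for Rbm38. In Srsf5 these counts were 10, 11 and 7 of 11, whereas 7 of the 11 clusters of Tra2a were enriched for none of the proteins. The hnRNP list had 344 clusters in 24 of 28 genes, with 32.8% for all 3. Of these clusters, 130 were those of Pcbp3. Only 21 of the 130 were enriched for all 3, so Pcbp3 did not raise that share. Proteins of 3′ splice site recognition had 49 clusters in 9 of 19 genes, with 67.3% for either isoform and 44.9% for Rbm38; U2af2, the large U2AF subunit, had 5 clusters, and all were enriched for both isoforms. DEAD and DEAH box helicases had 83 clusters in 13 of 53 genes, with 62.7% and 65.1% for the isoforms and 50.6% for Rbm38. In Ddx39b, which acts in splicing and mRNA export, all 14 clusters were enriched for Puf60 without exon 5, 13 for Puf60 with it and 5 for Rbm38. The cleavage and polyadenylation list (43 clusters in 7 of 20 genes) had 76.7% for all 3, but 33 of its clusters were those of Cpsf6.

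In genes of cytoskeletal and mitochondrial proteins, shared clusters were less often enriched for Puf60 than over all shared clusters, where the shares were 61.3% for Rbm38 and 41.7% and 40.5% for the isoforms; this was not tested, and the Rbm38 shares lay on both sides. Neuronal microtubule regulators had 126 clusters in 10 of 20 genes, with 65.9% enriched for Rbm38 and 10.3% and 15.1% for the isoforms; 94 of them were those of Map1b. Dpysl2, which promotes microtubule assembly in axons, had 6 of 7 clusters enriched for Rbm38 and none for an isoform. Oxidative phosphorylation genes had 101 clusters in 35 of 96 genes, with 54.5% for Rbm38 and 16.8% and 14.9% for the isoforms, and 56.4% of those in the direction of the gene were within 2000 nt of the 3′ end. The 14-3-3 family of phosphoprotein adaptors, which is neither cytoskeletal nor mitochondrial, had 26 clusters in 6 of 7 genes. Of these, 76.9% were enriched for Rbm38 and 38.5% for either isoform (22.4 to 57.5%), near the isoform shares over all shared clusters. Tubulins and actins had 54 clusters in 11 of 17 genes, with 46.3% for Rbm38, 16.7% and 13.0% for the isoforms and 46.3% for none.

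Cytosolic ribosomal protein genes stood low for every protein. They held 392 shared clusters in 80 of 85 genes, the most complete of the lists, and 36.7% of the clusters were enriched for none of the proteins, beside 16.8% over all shared clusters. Enrichment was 40.3% for Rbm38 and 32.7% and 30.6% for the isoforms. Single genes differed: Rplp0 had 6 of 9 clusters enriched for none. Rpl4 had 6 and 7 of 10 enriched for Puf60 with and without exon 5, and 1 for Rbm38. Translation factors had 204 clusters in 29 of 36 genes (52.0%, 45.1% and 40.7% enriched for Rbm38 and for Puf60 with and without exon 5), and chaperones 184 in 25 of 29 genes (45.1%, 44.0% and 45.1%). In Hsp90b1, a chaperone of the endoplasmic reticulum, 15 and 17 of 18 clusters were enriched for Puf60 with and without exon 5, and 11 for Rbm38. Cell cycle and replication genes had 65 clusters in 14 of 29 genes (35.4%, 40.0% and 43.1%), and 13 of the 23 clusters of Mki67 were enriched for none. Chromatin regulators had 100 in 24 of 39 genes (67.0%, 49.0% and 40.0%), close to all shared clusters. Of 24 p53 target genes, 5 held a shared cluster, 8 clusters in all, of which 7 were enriched for Rbm38 (95% Wilson interval 52.9 to 97.8%, which holds the 61.3% over all shared clusters); Trp53 itself had 1, at 48 nt from its 3′ end, with deposited log2 folds of 1.81, 1.82 and 0.63.

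**Figure D4:**
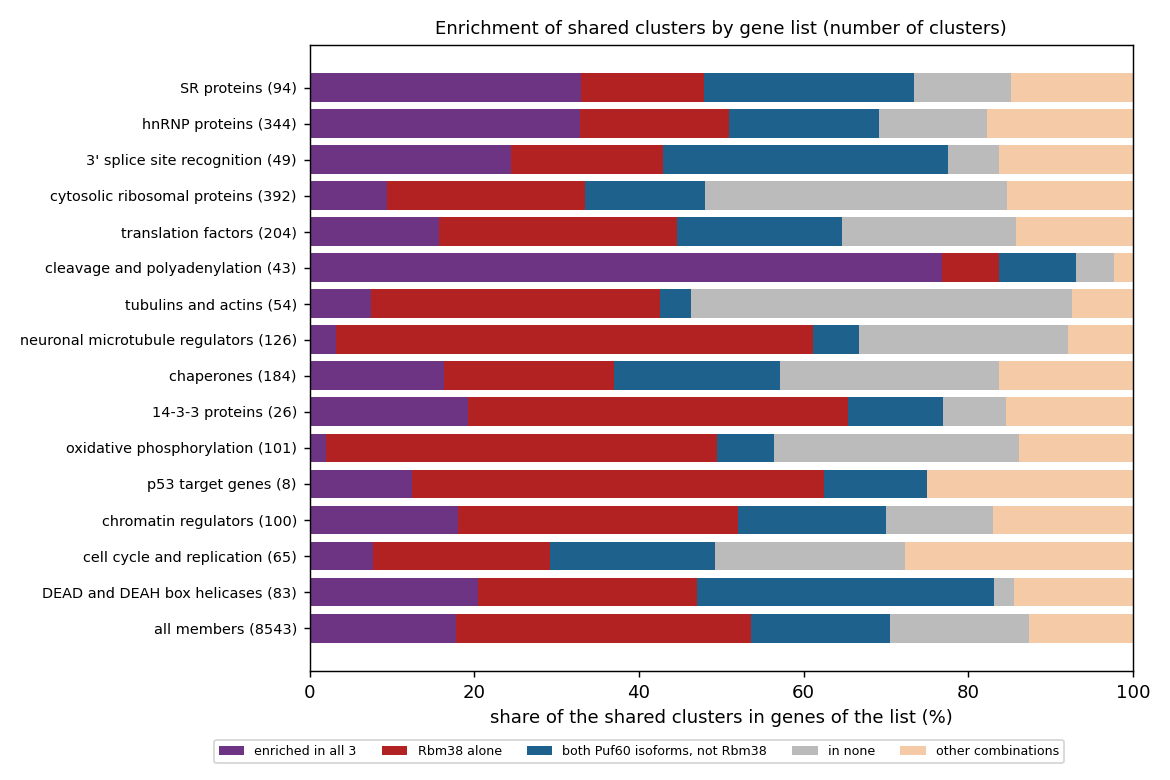
Share of the shared clusters (percent) in genes of each list by which proteins were enriched: all 3, Rbm38 alone, both Puf60 isoforms but not Rbm38, none, or another combination; the number of clusters stands beside each list. Cleavage and polyadenylation has the widest all-3 bar (76.7%, 33 of 43 clusters from Cpsf6), neuronal microtubule regulators the widest Rbm38 bar (57.9%), and tubulins and actins the widest bar for none (46.3%).

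At annotated starts, some of whose sequences are printed above, enrichment was less frequent. Of the 138 shared clusters over a first 50 bases, 39.9% were enriched for Rbm38 and 31.9% for either isoform, and 43.5% for none. Ribosomal protein genes gave 31 of them, with 58.1% enriched for none, and histone genes 19. A C followed by at least 4 further pyrimidines, the start that marks mRNAs of the translation machinery, opened 13 (9.42%) of them; it opened 2.94% of the RefSeq start windows of genes that hold a shared cluster and 2.21% of those of all protein-coding genes. Only the exact start was searched, on the transcribed strand. With such a start, Rpl38 had deposited log2 folds of 1.96 for Rbm38 and 0.38 and -0.34 for the isoforms, and Rack1, a ribosome-bound scaffold protein, had 0.44, 0.95 and 0.48. The run of Ts in Kmt2d had 0.77, 0.74 and 0.76. Of the first 15 bases, 26.7% are pyrimidines in Xpo1, which had 1.92, 2.97 and 4.47, and 40.0% in Ddx17, which had 2.27, 1.66 and 2.70. Both clusters run past the first 50 bases, so their folds describe a wider stretch. Among the 7 fully covered starts enriched for all 3, another ranked first by the lowest of its folds. It is not printed here, and 86.7% of its first 15 bases are pyrimidines. A link between pyrimidines and fold was not tested.

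Some shared clusters were far below input for every protein, and many of these touched small RNA genes. All 3 deposited log2 folds were under 0 at 405 clusters, under -1 at 87 and under -2 at 29. Of the 29, 12 (41.4%) overlapped an annotated snoRNA, miRNA, tRNA or snRNA gene, as did 52 of all 8543 (0.61%). The share was lower at the milder cut-offs, with 23 of the 87 (26.4%) and 33 of the 405 (8.15%). The centre of each cluster lay outside the small RNA gene, by the rule. On the strand opposite to their gene lay 8 of the 29. A different set, the 29 of all 8543 clusters that overlapped a snoRNA gene, had median log2 folds of -2.06, -1.68 and -1.87. Of that set, 9 were under -2 for all 3 proteins. SnoRNAs guide chemical modification of ribosomal RNA, and many are cut from the introns of genes of the translation machinery. The clusters include those of Rpsa with Snora62 (-3.66, -3.13 and -3.81) and Nop58, a snoRNP core protein gene, with Snord11 (-3.61, -2.94 and -3.21). These genes were picked after their values were seen. Whether reads of the small RNA set these values was not tested.

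Hairpins of miRNAs were found on both sides. The Cbwd1 cluster over Mir3084-1 had deposited log2 folds of -4.13, -3.86 and -3.37, and the Eif3a cluster over Mir3084-2, a separate locus with the same mature sequences, had -4.11, -3.94 and -3.36. How reads that match both loci were counted is not stated, so their values are uncertain. The Alkbh1 cluster over Mir3068 was far below input for Rbm38 (-4.95) and near it for Puf60 with exon 5 (0.11). The clusters over whole hairpins were above input for Rbm38: Actg1 with Mir6935 had 4.0, 3.31 and 3.70, Srrm2 with Mir5125 had 2.04, 4.18 and 4.33, Ddx5 with Mir3064 had 1.01, 1.52 and 1.88, and Scd2 with Mir5114 had 3.32, -0.10 and -0.31. Whole hairpins lay in clusters of 300 nt or more, so these folds describe the wider stretch and not the hairpin itself.

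Shared clusters were wider and more often near the 3′ end than Rbm38 clusters without Puf60. A wider cluster meets the overlap rule more easily, so the difference in width is at least partly set by the choice of clusters. The 24677 Rbm38 clusters in a single protein-coding gene that overlapped no Puf60 cluster had a median width of 50 nt against 100 nt, and 22.5% (21.9 to 23.0%) lay within 2000 nt of the 3′ end against 37.4% (36.3 to 38.4%). Clusters that overlapped Puf60 without exon 5 only (3486) had 38.6% there, and those that overlapped Puf60 with exon 5 only (2302) had 21.4%. Just inside the rule were 1108 clusters wider than 50 nt that shared 50 nt, the smallest overlap seen, with each Puf60 table, and their median log2 fold for Rbm38 was 2.01. Just outside were 1317 that did not overlap both but had clusters of both isoforms within 50 nt, with a median of 0.78. No width was required of these 1317, so the medians are not of like sets. On the strand opposite to the gene lay 632 shared clusters in 476 genes, and 61.9% of them were enriched for Rbm38 and 39.6% and 37.8% for the isoforms, close to the shares in the direction of the gene (61.3%, 41.9% and 40.8%).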

How the data were processed

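Per the labels' protocols, iCLIP libraries were made with a Flag antibody beside size-matched inputs. The submitters' processing notes name TopHat, edgeR, NCBIM37 and mm10, with no role given. The authors deposited 1 table per protein with each cluster's position, a log2 fold change (read here as CLIP over input) and raw and adjusted p-values, per the file headers; how clusters were called and replicates used is not stated in those sources. Clusters were assigned by their centre to 49997 RefSeq gene bodies (GRCm38.p6, the mm10 build). Starts fall on a 50-nt grid with offset 0 (read as plus) or 35 (minus). Gene strand came from the reference, or from at least 3 clusters with 80% on 1 offset; both ways gave the same strand for 3618 of 3839 genes (94.2%). Where several Puf60 clusters overlapped, that of largest overlap was taken. No test was run; steps were tested on simulated data. The adjusted p was 1 although the deposited p-value was under 0.05 for 910, 606 and 395 members. Members and lists were chosen with earlier results of these data known. Named genes leave out predicted genes: the 10 highest per group by fold, 5 per direction between isoforms, the 10 with most members, and up to 4 per list; some of these are not reported here. Python 3 with pandas was used.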

Additional observations from a re-analysis of the deposited data

How the results depend on the processing

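Of 86 recomputed counts, 70 stayed within 1.5 times the reported value. With an overlap of at least 50% of both clusters, 5820 members remained, 5076 of them in the direction of their gene. Of the 5820, 3321 (57.1%, beside 61.3% in the main set) were enriched for Rbm38 and 1913 (32.9%, beside 35.7%) for Rbm38 alone. Near the 3′ end lay 1714 of the 5076 (33.8%, beside 37.4%). Requiring a log2 fold of at least 1 as well left 987 enriched in all 3 tables, and a Benjamini-Hochberg adjustment of the deposited p-value left 953 enriched in none. Within 1000 nt and 500 nt of the 3′ end lay 1873 and 1163 members. Restricting to identical extent in all 3 tables, an alternative chosen after seeing the data, left 2985 members, of which 1693, 1202 and 1150 were enriched for Rbm38 and for Puf60 with and without exon 5, 521 for all 3, 962 for Rbm38 alone, 472 for the isoforms only and 664 for none, with 739 near the 3′ end; the fall comes from the smaller set, and the shares were 17.5%, 32.2%, 15.8% and 22.2% for the groups. The 3 other alternatives added later (strand given by the reference, no opposite-strand members, without Pcbp3) moved no count past 1.5 times.

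No paired analysis was possible because the tables hold no values per library; leaving out replicates was not run for the same reason. Depth is unknown, so clusters not enriched cannot be told apart from clusters with few reads. The folds rest on 3 CLIP libraries against 1 input per protein, and many members share a log2 fold and p-value with another (1725, 3368 and 3264).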

Other observations

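The mitochondrial genome held 15 shared clusters, and 1 of those in ND4 was the widest of all members, at 8450 nt. All 15 were below input for every protein in the authors' deposited tables, with median log2 folds of -1.01, -2.50 and -2.69, in the order Rbm38, Puf60 with exon 5 and Puf60 without it. The cluster of ND2 was among the lowest, with -3.22, -3.57 and -4.54. Clusters of COX1 at 2 places had -1.51, -2.31 and -2.29, and -1.26, -3.57 and -2.56; neighbouring clusters here can share a Puf60 cluster.

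Members enriched for none of the proteins lay at gene 5′ ends more often than those of the 3 largest other groups. Of the members enriched for none, 12.7% (11.01 to 14.69%) lay within 500 nt of the 5′ end of their gene, against 1.83% where Rbm38 alone was enriched, 3.28% where all 3 were and 3.28% where only the isoforms were. The small groups enriched for a single isoform lay between, at 7.69% (4.55 to 12.7%) with exon 5 and 8.89% (5.83 to 13.3%) without it, and their intervals overlap that of the members enriched for none.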
